A study of Mus musculus with 4 samples.

Results

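RNA levels of 40 genes of sterol synthesis, SREBP signalling and lipogenesis were followed in lung group 2 innate lymphoid cells (ILC2s), with the genes taken by name from a list and not by a threshold on measured values. They are 8 enzymes of the mevalonate pathway, 11 enzymes that turn farnesyl diphosphate into cholesterol, and 6 genes called regulators here. The 6 are Srebf1 and Srebf2, which encode the SREBP factors, Scap, Insig1, Insig2 and the cholesterol carrier Stard4. The others are 11 genes of fatty acid and glycerolipid synthesis, and 4 genes of sterol efflux and the LXR response. All 40 were in the deposited table of 22554 genes, and all 40 passed the filter on low counts that left 17650 genes for testing. The ILC2s were sorted from lungs of BALB/c mice aged 6 weeks and kept ex vivo with the cytokines IL-2, IL-7 and IL-33. Vehicle was added to the cultures of 2 libraries, and compound 5D, a small molecule that blocks the Orai calcium channels, to those of the other 2. All 4 libraries thus come from IL-33-activated cells, and no unstimulated or Orai-deficient cells were measured here. The labels give an overnight culture and the study's methods 24 h. Neither says how many mice or cultures stand behind a library, so every p-value measures only the spread between these libraries, which may be technical.

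Cells make cholesterol from acetyl-CoA through mevalonate and farnesyl diphosphate, which also feeds protein prenylation, dolichol and ubiquinone. Most enzymes of this route, and many of fatty acid synthesis, are targets of the SREBP transcription factors, which the escort protein SCAP carries to the Golgi for cleavage when membrane sterols are low and which the INSIG proteins hold in the endoplasmic reticulum when sterols are high. Dividing and activated lymphocytes are known to use this programme for membrane growth, and the liver X receptors (LXRs) act in the opposite direction by driving sterol export.

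With 5D, 31 of the 40 genes were lower than with vehicle and 9 were higher, and their log2 fold changes had a median of -0.14, a minimum of -0.44 and a maximum of 0.38. None of the 40 changed at an adjusted p-value under 0.05 by edgeR (quasi-likelihood, Benjamini-Hochberg over all genes tested), where 0.0963% of all genes tested did. At an unadjusted p-value under 0.05, 13 members were lower, against a background of 3.84% of all genes tested, and 3 were higher, against 3.5%. The 13 were Hmgcs1, Idi1 and Fdps of the mevalonate pathway, Fdft1, Sqle, Cyp51 and Msmo1 of the sterol branch, the regulators Srebf1, Srebf2, Insig1 and Stard4, and the lipogenic genes Fasn and Scd2. The 3 were Ggps1, Lpin1 and Abcg1. In 22 members both 5D values were under both vehicle values, as for 18.8% of all genes tested, and in 4 members both were over them, as for 18.7%. The groups overlapped for the other 14. Over all genes tested, 8887 were lower and 8763 higher, with a median log2 fold change of -0.0016. The count of members called at an adjusted p-value depended on the tool, filter and model, and so did the count over all genes tested. In the main test 17 of 17650 genes were called. DESeq2's Wald test called 2 members and 58 of 17650 genes. Without a filter 2 members and 46 of 22054 genes were called, and with the replicate number as a block 2 members and 41 of 17650. Limma-voom called 1 member and 32 of 17650 genes, and edgeR's filterByExpr 1 member and 26 of 14458.

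**Figure D1:**
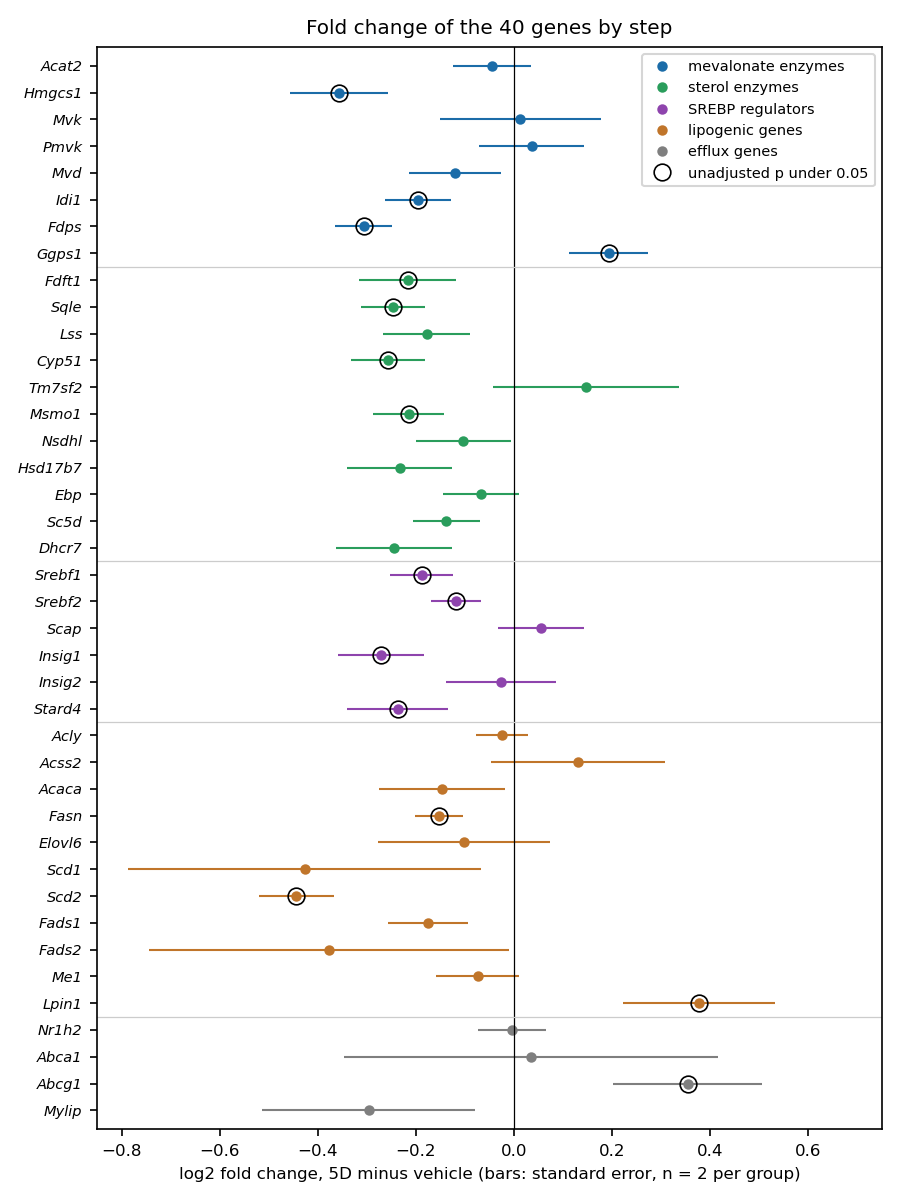
Fitted log2 fold change of each of the 40 genes, 5D minus vehicle (x axis), with bars for the standard error and colours for the step of the pathway; rings mark an unadjusted p-value under 0.05. Most points of the sterol enzymes lie left of 0, between -0.26 and -0.068, with Tm7sf2 at 0.15 as the exception, and Scd2 at -0.44 has a short bar while Scd1 and Fads2 have long ones.

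The vehicle libraries held 23239853 and 20096555 counts on genes and the 5D libraries 26912708 and 28697265, so depth differed with treatment. Mitochondrially encoded genes took 0.981% and 1.06% of the counts with vehicle and 0.809% and 0.808% with 5D. With all libraries thinned to the smallest total, the counts at an unadjusted p-value under 0.05 were 12 lower and 1 higher, and with the mitochondrially encoded genes left out they were 13 and 3. All 10 ILC2 markers listed were detected, with a summed level of 9646 and 9445 normalized CPM (a gene's counts over the library's total count after upper-quartile scaling, in CPM) with vehicle and 8816 and 9176 with 5D. Most of that sum was Il5, at 4752 and 4710 with vehicle and 4377 and 4548 with 5D, and Il2ra, at 2221 and 2068 against 1771 and 1874. Il13 (173 and 179 against 168 and 166), Klrg1 (241 and 234 against 205 and 222) and Thy1 (11.5 and 13.0 against 10.1 and 8.57) were also lower. Rora (231 and 231 against 258 and 238) and Il1rl1 (667 and 627 against 676 and 732) were higher. The groups overlapped for Gata3, at 1091 and 1099 against 1095 and 1108, and for Il7r and Areg. Of the T cell markers, 3 of 4 were in the table and Cd4 was at 0 in all libraries, and their sum, mostly Cd3g, was 25.4 in each vehicle library and 26.6 and 27.3 with 5D. The summed level of the macrophage and monocyte markers, 5 of 5 in the table, ranged from 2.97 to 6.45 with vehicle and from 4.16 to 4.72 with 5D. Lung structural markers, 4 of 5 in the table, summed to 49.9 and 46.8 with vehicle and 45.5 and 43.5 with 5D. Nearly all of this sum was Epcam, at 26.0 and 25.5 against 25.5 and 27.7, and Pecam1, at 23.7 and 21.3 against 19.9 and 15.7. Sftpc and Col1a1 had at most 4 counts in any library. B cell markers (1 of 3 in the table) reached at most 0.250, NK cell and ILC1 markers (2 of 3) at most 0.431, the eosinophil marker Ccr3 (1 of 3) at most 5.05, and mast cell and basophil markers (3 of 3) at most 5.55. The part of these cell types in the differences was not tested. In bulk RNA, fewer cells of a type and less RNA per cell cannot be told apart.

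The stretches before the start sites of 6 members are given here, since SREBPs are known to work at promoters together with NF-Y and Sp1. Hmgcs1, Cyp51, Insig1 and Fasn stand for the genes that were lower with 5D, 1 from each step other than efflux, and Ggps1 and Lpin1 for those that were higher. Capitals mark any match to the sterol regulatory element TCACNCCAC, its core CACCCCAC, the palindromic E-box TCACGTGA, the box CCAAT, which NF-Y is known to bind, or the box GGGCGG, which Sp1 is known to bind, on either strand, so that a capital run may also be the reverse complement of one of these. Sequences are from RefSeq on GRCm38.p6, in the direction of transcription, 5′ to 3′.
Hmgcs1, chr13:119690151-119690350, plus strand: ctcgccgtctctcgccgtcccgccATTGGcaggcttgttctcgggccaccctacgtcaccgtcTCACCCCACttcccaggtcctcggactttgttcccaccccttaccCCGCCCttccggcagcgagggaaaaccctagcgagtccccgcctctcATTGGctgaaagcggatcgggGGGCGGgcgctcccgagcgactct
Cyp51, chr5:4104747-4104897, minus strand: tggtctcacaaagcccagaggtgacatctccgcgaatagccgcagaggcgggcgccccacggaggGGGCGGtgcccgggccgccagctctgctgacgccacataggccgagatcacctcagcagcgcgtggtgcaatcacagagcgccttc
Insig1, chr5:28071212-28071362, plus strand: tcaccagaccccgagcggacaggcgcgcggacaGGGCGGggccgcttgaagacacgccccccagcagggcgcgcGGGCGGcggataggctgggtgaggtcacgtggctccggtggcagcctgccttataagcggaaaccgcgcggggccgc
Fasn, chr11:120824548-120824747, minus strand: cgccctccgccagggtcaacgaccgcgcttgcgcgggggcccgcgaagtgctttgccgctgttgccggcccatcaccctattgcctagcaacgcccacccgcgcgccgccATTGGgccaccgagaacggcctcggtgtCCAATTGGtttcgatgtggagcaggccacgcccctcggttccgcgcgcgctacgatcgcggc
Ggps1, chr13:14063489-14063688, minus strand: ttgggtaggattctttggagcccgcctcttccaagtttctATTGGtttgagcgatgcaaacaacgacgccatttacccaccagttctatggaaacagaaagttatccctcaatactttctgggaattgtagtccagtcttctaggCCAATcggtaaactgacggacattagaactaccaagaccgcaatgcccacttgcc
Lpin1, chr12:16610967-16611166, minus strand: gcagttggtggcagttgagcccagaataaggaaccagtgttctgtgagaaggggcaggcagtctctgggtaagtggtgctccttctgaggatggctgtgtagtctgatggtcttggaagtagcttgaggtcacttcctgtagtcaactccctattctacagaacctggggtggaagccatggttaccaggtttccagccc

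RefSeq promoter windows, 250 bases before to 50 after a start, were found for 32 members in 41 windows. Fdps, Fdft1, Sqle, Scd1, Scd2, Stard4, Fads1 and Abcg1 had no entry. The full element TCACNCCAC was in the windows of 1 member, Hmgcs1, 137 bases before the start, which is 2.44% of the member windows against 1.24% of all 32851 windows. Its core CACCCCAC, which overlaps that match by construction, was also in the window of Acat2, and so in 4.88% of the member windows against 2.87% of all. No member window held TCACGTGA, which 0.974% of all windows held. The short boxes were more frequent. A CCAAT was in 61.0% of the member windows and in 37.4% of all windows, and a GGGCGG in 70.7% against 35.7%. All 9 sterol enzymes with a window had both boxes, while 4 of 8 lipogenic genes had a CCAAT and 4 of 8 a GGGCGG. Of the stretches shown, that of Ggps1 carried CCAAT on both strands, as did that of Fasn, where 2 of the matches overlap in CCAATTGG. That of Lpin1 held none of the 5 motifs. The stretches of Cyp51 and Insig1 were cut to 151 bases and show no CCAAT, while the full window of each held 1. Whether the boxes go with the direction of the difference was not tested. Most of these letters are short and are common near the starts of many genes, so a match is a description and no site of binding. Only these exact letters were searched, so a window without a match may still hold a variant of the element. The deposited row of Lpin1 reaches upstream of the start shown.

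Levels differed widely between the members. Per kilobase (kb) of each gene's principal transcript, which is the scale used to compare genes, the mean level over the groups ran from 0.231 normalized CPM per kb for Abca1 to 132 for Fdps. In the vehicle libraries the highest member of each step was Fdps at 146 normalized CPM per kb, Ebp at 57.1, Srebf2 at 49.97, Acly at 69.9 and Nr1h2 at 47.0. The lowest was Mvk at 10.1, Tm7sf2 at 4.86, Stard4 at 8.09, Scd1 at 0.465 and Abca1 at 0.229. Summed over a step, the level per kb of the mevalonate enzymes was 338 and 323 with vehicle and 292 and 286 with 5D, a difference of -12.4%. For the sterol enzymes the sums were 269 and 276 against 241 and 244, or -11.1%. The regulators summed to 161 and 163 against 144 and 149, or -9.39%, and the lipogenic genes to 180 and 168 against 163 and 160, or -7.16%. In these 4 steps both 5D sums were below both vehicle sums. For single genes the like share was 18.8% of all genes tested, and sums over other gene sets were not made. The efflux genes, at 50.5 and 52.9 against 51.3 and 52.5, differed by 0.369% and overlapped. A single gene weighed heavily in some sums. Without Fdps the mevalonate enzymes summed to 188 and 181 with vehicle and 171 and 172 with 5D, a difference of -7.08%. Most of the efflux sum was Nr1h2, and the other 3 genes summed to 5.04 and 4.41 with vehicle and 5.07 and 5.10 with 5D. Without their highest member the difference was -12.8% for the sterol enzymes, -10.1% for the regulators and -10.9% for the lipogenic genes.

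**Figure D2:**
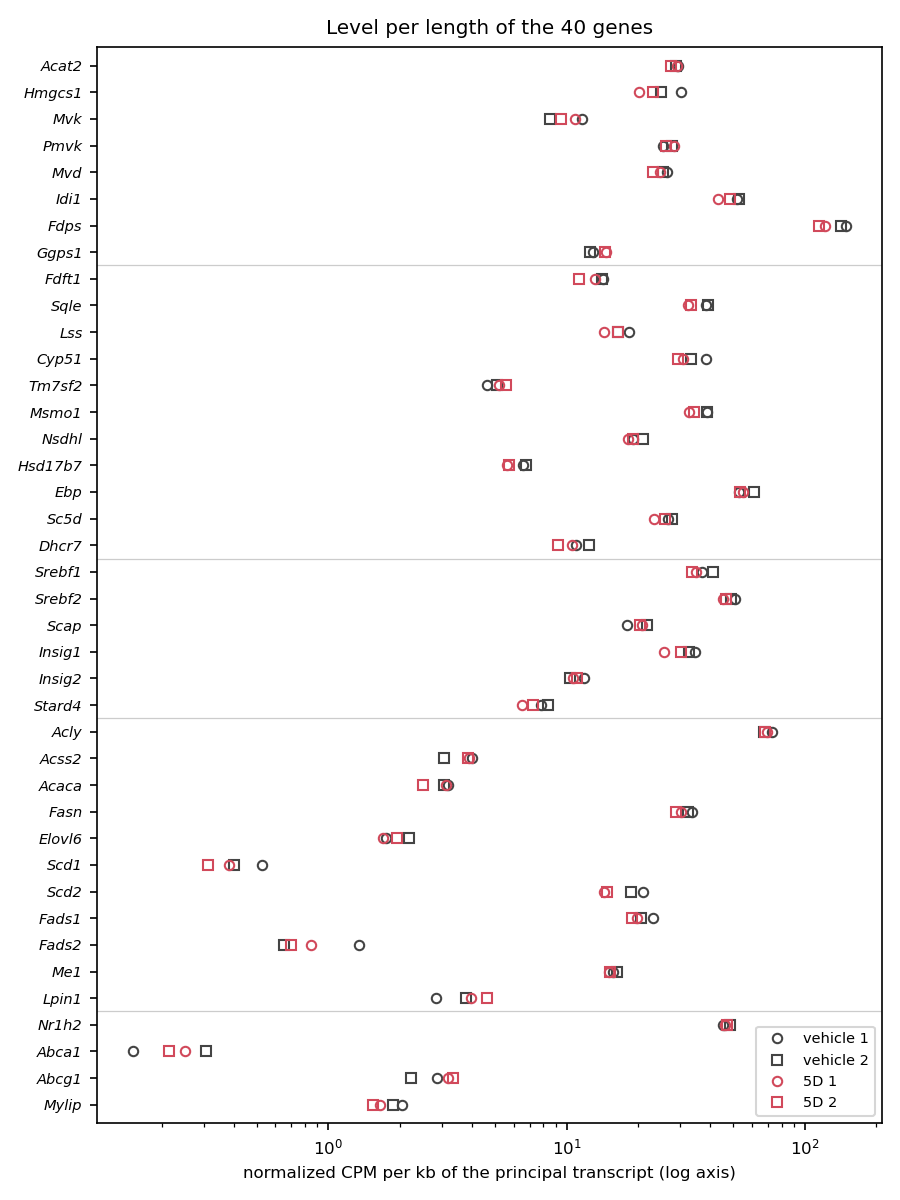
Level of each gene in each library, in normalized CPM per kb of the principal transcript on a log axis; dark symbols are vehicle libraries and red symbols 5D libraries, with circles for replicate 1 and squares for replicate 2. The vehicle means spread from 0.229 (Abca1) to 146 (Fdps), and for most genes the 4 symbols lie close together.

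In the mevalonate pathway 5 of 8 enzymes were lower and 3 higher, with a median log2 fold change of -0.083. Fdps, farnesyl diphosphate synthase at the branch point of sterols and isoprenoids, stood at 207 and 196 normalized CPM with vehicle and at 168 and 158 with 5D. Both 5D libraries were below both vehicle libraries, and the log2 fold change was -0.31 ± 0.058 (SE, n = 2 per group, adjusted p = 0.121). Fdps lies at chr3:89093588-89101959 on the minus strand of mm10, shares near-identical stretches with the pseudogenes Gm3571, Gm5873, Gm7979 and Gm8163, of which Gm3571 carried 61.6 to 87.4 counts per library, and overlaps Gm43738 on the same strand. Hmgcs1, the cytosolic HMG-CoA synthase that opens the route and carries the full element shown above, was at 105 and 86.0 normalized CPM with vehicle and at 69.7 and 79.6 with 5D. The groups did not overlap, with 86.0 and 79.6 as the closest libraries. Its log2 fold change was -0.36 ± 0.10 (adjusted p = 0.476), and without vehicle replicate 1 it was -0.21.

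Idi1, the isomerase that makes dimethylallyl diphosphate, stood at 158 and 161 normalized CPM with vehicle and at 130 and 147 with 5D. Its log2 fold change was -0.20 ± 0.067 (adjusted p = 0.557), and -0.12 without 5D replicate 1. Ggps1 makes geranylgeranyl diphosphate, the lipid that anchors small GTPases, and takes the product of Fdps away from sterols. It was at 54.9 and 53.0 normalized CPM with vehicle and at 61.9 and 61.5 with 5D, a log2 fold change of 0.19 ± 0.081 (adjusted p = 0.635). Both 5D libraries were above both vehicle libraries, so Ggps1 lay in the opposite direction to Fdps. The ratio of Fdps to Ggps1 per kb, a pair chosen after their values were seen, was 11.5 and 11.4 with vehicle and 8.31 and 7.89 with 5D. Mvk, mevalonate kinase, had the smallest difference of the step, at 19.2 and 14.2 normalized CPM with vehicle and 17.98 and 15.8 with 5D. Here the 5D libraries lay between the vehicle libraries (log2 fold change 0.013 ± 0.16, adjusted p = 0.997). Of the rest, Mvd, mevalonate diphosphate decarboxylase, was at 44.5 to 46.6 with vehicle and 40.3 to 43.5 with 5D and did not overlap. The groups overlapped for Acat2, a thiolase that supplies acetoacetyl-CoA (65.1 to 65.9 against 61.5 to 65.5), and for Pmvk, phosphomevalonate kinase (30.5 to 32.98 against 31.2 to 33.8).

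In the sterol branch 10 of 11 enzymes were lower with 5D. For 8 of the 11 the groups stood apart in that direction, as they did for 18.8% of all genes tested. The branch had a median log2 fold change of -0.22. Its adjusted p-values ran from 0.422 to 0.924. Sqle, squalene epoxidase and a control point of sterol synthesis, was at 106 and 108 normalized CPM with vehicle and at 89.1 and 91.8 with 5D. Replicates were close and the groups stood apart, with a log2 fold change of -0.25 ± 0.065 (adjusted p = 0.422). Msmo1, which starts the removal of methyl groups from the sterol ring, showed the same tight pairs, at 79.3 and 79.2 against 66.7 and 69.9 normalized CPM. Its log2 fold change was -0.22 ± 0.073 (adjusted p = 0.552). Cyp51, the lanosterol demethylase, had the largest difference of the branch, at 151 and 130 with vehicle and 121 and 115 normalized CPM with 5D. The log2 fold change was -0.26 ± 0.075 (adjusted p = 0.498), and -0.15 without vehicle replicate 1, the higher of the vehicle libraries.

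Fdft1, squalene synthase, which commits farnesyl diphosphate to sterols, was at 52.6 and 52.3 normalized CPM with vehicle and at 48.7 and 41.5 with 5D. The log2 fold change was -0.22 ± 0.098 (adjusted p = 0.677), and -0.11 without 5D replicate 2, the lower of the 5D libraries. Fdft1 overlaps Ctsb on the opposite strand, a gene with 5159 to 7440 counts per library, and Cyp51 overlaps Akap9 in the same way. Ebp, the sterol isomerase, was the highest member of the branch per kb and had its smallest difference, at 92.5 and 106 with vehicle and 96.1 and 93.6 normalized CPM with 5D. Its groups overlapped (log2 fold change -0.068 ± 0.078, adjusted p = 0.907). Tm7sf2, a sterol reductase, was the one enzyme of the branch that was higher, with 6.80 and 7.495 normalized CPM against 7.63 and 8.18. Its log2 fold change of 0.15 ± 0.19 (adjusted p = 0.924) was smaller than its standard error, and it overlaps Vps51 on the same strand.

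The other 5 sterol enzymes were lower and missed an unadjusted p-value under 0.05. Hsd17b7, a keto reductase of the demethylation complex, ranged from 30.4 to 31.3 normalized CPM with vehicle and from 25.9 to 26.5 with 5D. Dhcr7, which makes cholesterol from its last precursor, ranged from 30.9 to 35.1 against 25.9 to 29.7. The groups did not overlap for either gene. Lss, lanosterol synthase, at 77.0 to 85.5 against 66.7 to 76.9, was separated only by the distance between its closest libraries, 77.0 and 76.9. Sc5d, the sterol desaturase, was at 128 to 132 against 112 to 124. Nsdhl, a decarboxylase of the demethylation complex, overlapped between the groups, at 41.2 to 45.4 against 39.2 to 41.3.

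**Figure D3:**
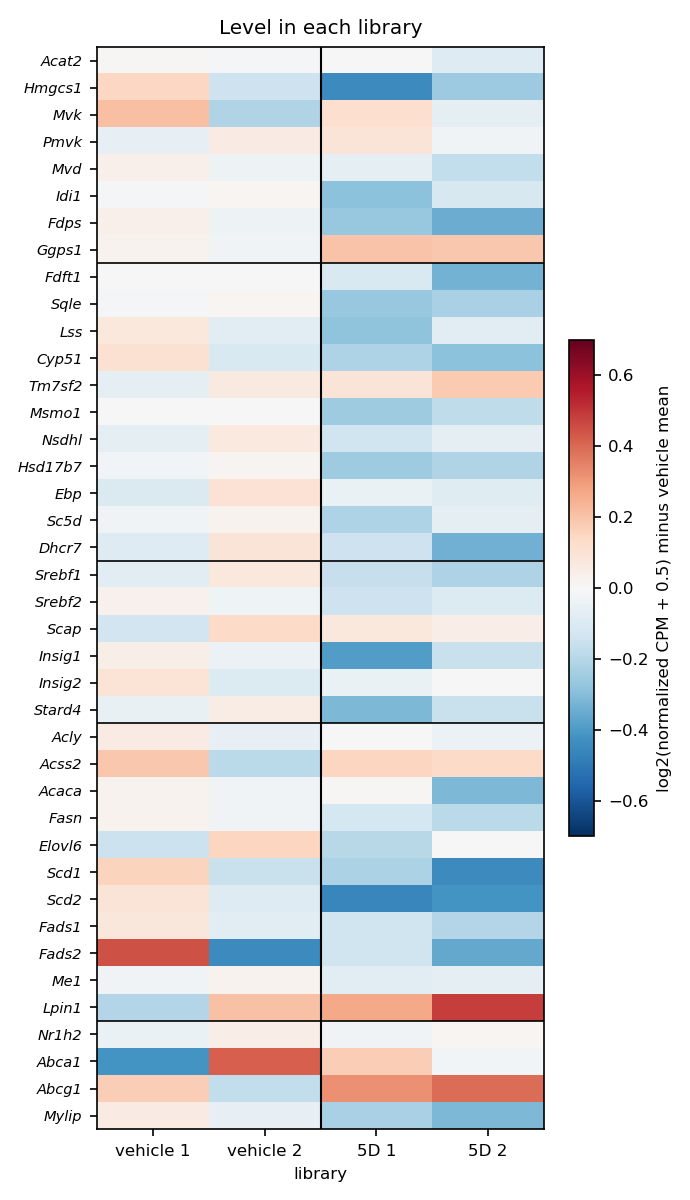
Level of each gene (rows, in order of the pathway) in each library (columns), as log2(normalized CPM + 0.5) minus the mean of the vehicle libraries; blue is lower and red higher. The sterol enzymes have median values of -0.22 and -0.18 in the 5D libraries, and the efflux genes 0.074 and -0.0016.

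Among the regulators 5 of 6 genes were lower, and the median log2 fold change was -0.15. In edgeR's test 4 of the 6 were lower at an unadjusted p-value under 0.05, against 3.84% of all genes tested. Srebf1 and Srebf2 encode the transcription factors themselves, the first known for lipogenic and the second for sterol genes. Srebf1 was at 160 and 177 normalized CPM with vehicle and at 150 and 145 with 5D, a log2 fold change of -0.19 ± 0.064 (adjusted p = 0.552). Without vehicle replicate 2, the higher of the pair, it was -0.12. Srebf2 stood at 259 and 248 normalized CPM with vehicle and at 230 and 238 with 5D, with a log2 fold change of -0.12 ± 0.051 (adjusted p = 0.645). Both factors had no overlap between groups, and their ratio per kb, Srebf2 over Srebf1, overlapped at 1.38 and 1.19 against 1.29 and 1.39. The table counts genes, so the SREBP-1a and SREBP-1c forms of Srebf1 are not separated.

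Insig1, the sterol-dependent retention factor and itself an SREBP target, had the largest difference of the regulators, at 93.7 and 88.2 normalized CPM with vehicle and 69.2 and 81.6 with 5D. The log2 fold change was -0.27 ± 0.087 (adjusted p = 0.532), and -0.16 without 5D replicate 1, the lowest of the 4 libraries. Insig2, its relative, had the smallest difference, at 31.9 and 27.8 against 28.9 and 29.8 normalized CPM (log2 fold change -0.027 ± 0.11, adjusted p = 0.987). The ratio of Insig1 to Insig2 per kb did not overlap, at 2.94 and 3.17 with vehicle and 2.40 and 2.74 with 5D. Stard4, a carrier that moves cholesterol between membranes, was at 39.7 and 42.7 normalized CPM with vehicle and at 33.01 and 36.9 with 5D. The groups stood apart, with a log2 fold change of -0.24 ± 0.10 (adjusted p = 0.647). Scap, the escort protein, was the one regulator that was higher, and its groups overlapped at 76.2 to 91.8 against 86.2 to 88.1 normalized CPM.

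The lipogenic genes held both the largest lower and the largest higher difference of the 40. Of these 11 genes 9 were lower and 2 higher, and the median log2 fold change was -0.15. The groups overlapped for 5 of them, and for 11022 of all 17650 genes tested. Scd2, a stearoyl-CoA desaturase that makes monounsaturated fatty acids was at 114 and 101 normalized CPM with vehicle and at 78.4 and 80.3 with 5D. Both 5D libraries lay well below both vehicle libraries, and the log2 fold change of -0.44 ± 0.076 ranked first by p-value among the 40 and at rank 22 among all genes tested (adjusted p = 0.0764). Over the alternatives that keep all libraries, the adjusted p-value of Scd2 ran from 0.000218 with DESeq2's Wald test to 0.111. Scd2 lies at chr19:44293674-44306864 on the plus strand of mm10 and shares near-identical sequence with Scd1, which was at 1.95 to 2.54 normalized CPM with vehicle and 1.504 to 1.84 with 5D. The ratio of Scd2 to Scd1 per kb was 39.9 and 46.0 with vehicle and 37.7 and 47.3 with 5D, and so overlapped. At 39 to 59 counts per library, Scd1 had a log2 fold change of -0.43 ± 0.36 (adjusted p = 0.866). Its error was several times that of Scd2, and without vehicle replicate 1 the log2 fold change of Scd1 was -0.22.

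Fasn, fatty acid synthase, which makes palmitate, was among the best measured members, at 337 and 326 normalized CPM with vehicle and 305 and 291 with 5D. The groups did not overlap, and the log2 fold change was -0.15 ± 0.049 (adjusted p = 0.532). Acly, ATP citrate lyase, which supplies the acetyl-CoA for both routes, was the highest lipogenic gene per kb and had the smallest difference, at 319 and 295 against 306 and 298 normalized CPM. Its 5D libraries lay between the vehicle libraries (log2 fold change -0.024 ± 0.052, adjusted p = 0.960). Lpin1, a phosphatidate phosphatase that makes diacylglycerol and also a transcriptional coactivator, was at 15.8 and 21.1 normalized CPM with vehicle and at 22.1 and 25.8 with 5D. The libraries did not overlap, but the nearest ones, 21.1 and 22.1, were close. Its log2 fold change was 0.38 ± 0.15 (adjusted p = 0.624), and 0.18 without vehicle replicate 1.

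Fads1, the delta-5 desaturase of polyunsaturated fatty acids, was lower without overlap, at 71.3 to 79.8 normalized CPM with vehicle and 65.4 to 68.6 with 5D. Me1, the cytosolic malic enzyme that yields NADPH, was also lower without overlap, at 51.7 to 53.5 against 49.7 to 50.2. Overlap was seen for Acaca, acetyl-CoA carboxylase (29.03 to 30.1 against 23.7 to 29.8), and for Elovl6, an elongase of saturated fatty acids (10.4 to 12.9 against 10.1 to 11.6). The same held for Acss2, which makes acetyl-CoA from acetate (8.94 to 11.8 against 11.3 to 11.4), and for Fads2, the delta-6 desaturase (2.05 to 4.22 against 2.20 to 2.65). The vehicle libraries were the wider group for Acss2 and Fads2.

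The efflux and LXR genes went in no common direction, with 2 lower and 2 higher and a median log2 fold change of 0.015. Abcg1, a transporter that passes cholesterol to lipoproteins, was at 16.7 and 12.99 normalized CPM with vehicle and at 18.5 and 19.5 with 5D. Both 5D libraries were above both vehicle libraries, with a log2 fold change of 0.35 ± 0.15 (adjusted p = 0.641), and 0.19 without vehicle replicate 2. Abca1, the partner transporter, overlapped widely at 1.55 and 3.15 against 2.58 and 2.20 normalized CPM. Nr1h2, which encodes LXR beta, was the highest of the step and had the smallest difference of the 40 genes, at 90.8 and 96.9 with vehicle and 92.4 and 94.7 normalized CPM with 5D. Its fitted log2 fold change of -0.0045 was positive, at 0.0048, with TMM normalization. Mylip, an LXR target whose product marks lipoprotein receptors for degradation, was lower without overlap at 5.75 to 6.24 against 4.72 to 5.05 normalized CPM (log2 fold change -0.30 ± 0.22, adjusted p = 0.834).

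The median absolute log2 difference between the vehicle libraries was 0.1297 over the 40 genes, that between the 5D libraries 0.0888, and that between the group means 0.176. Each 5D library was lower than each vehicle library for 28 to 31 of the 40 genes. The pairs share libraries and the genes may vary together, so these counts are a description. The like counts over all genes tested were not made. Within groups the genes were nearer to an even split, with 23 higher in vehicle replicate 1 than in replicate 2 and 21 higher in 5D replicate 1 than in replicate 2. When each library was left out in turn, 28 of the 40 genes kept their direction in all 4 fits. The 16 genes at an unadjusted p-value under 0.05 in edgeR's test were among them. For each of these 16, both 5D values lay on the same side of both vehicle values. Leaving out 1 library could then hardly turn their direction, so this restates the lack of overlap.

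**Figure D4:**
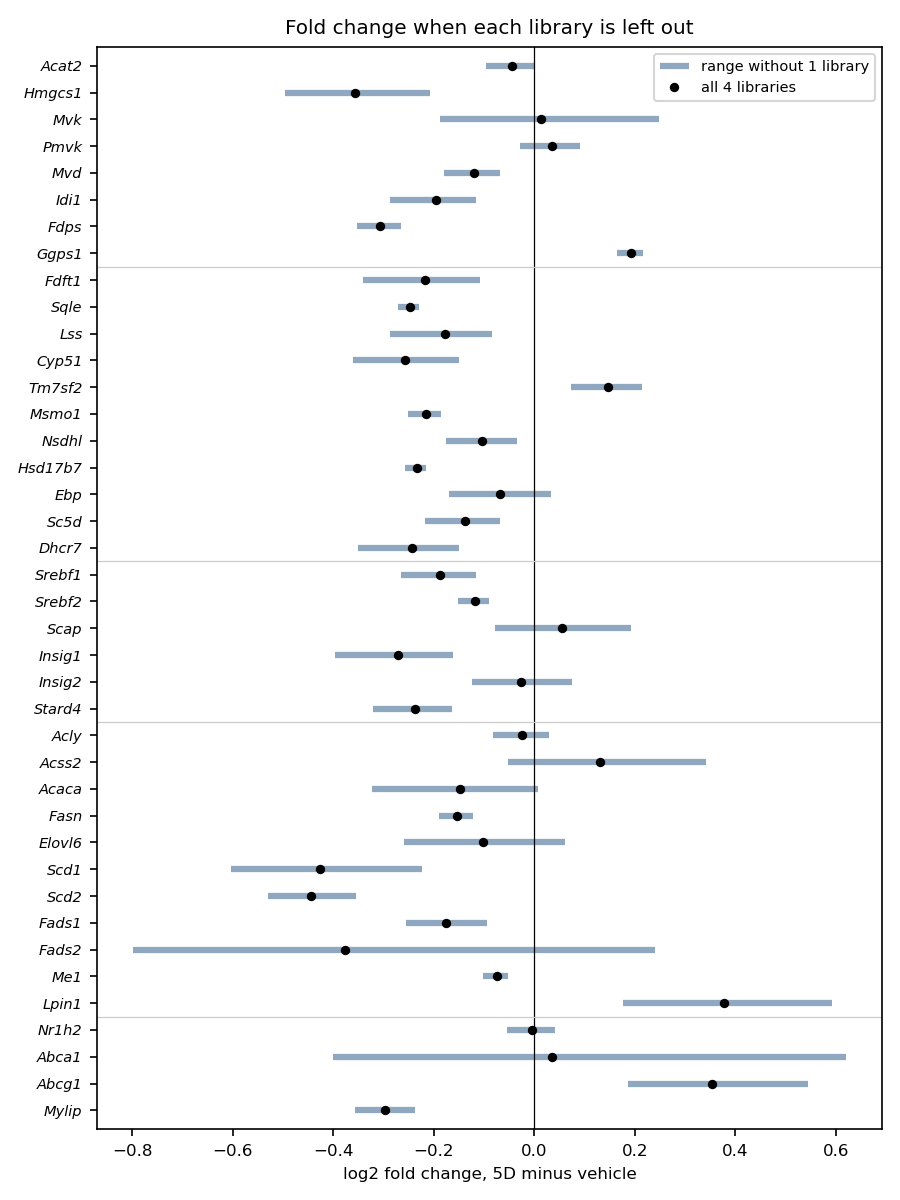
Log2 fold change of each gene with all 4 libraries (points) and its range when each library was left out in turn (bars), 5D minus vehicle. The bars of Sqle, Msmo1, Hsd17b7, Fdps and Scd2 stay left of 0, that of Ggps1 stays right of 0, and those of Fads2 (-0.80 to 0.24) and Abca1 (-0.40 to 0.62) are the widest.

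Other genes of the pathway, from lists beside the 40, were nearly evenly split. Of 33 tested, 17 were lower and 16 higher, and the median log2 fold change was -0.0063. At an unadjusted p-value under 0.05 in edgeR's test, 4 were lower and 0 higher, against 3.84% and 3.5% of all genes tested. In 10 both 5D values were under both vehicle values, as for 18.8% of all genes tested. In 7 both were over them, as for 18.7%. None passed an adjusted p-value under 0.05 in edgeR's test. Tmem97, a sterol-responsive membrane protein also known as the sigma-2 receptor, was at 108 and 109 normalized CPM with vehicle and at 89.9 and 89.8 with 5D. Its log2 fold change of -0.27 ± 0.064 (adjusted p = 0.341) was like that of Insig1. Slc25a1, the mitochondrial citrate carrier, was at 73.5 and 75.4 against 67.8 and 63.2 normalized CPM (log2 fold change -0.18 ± 0.077, adjusted p = 0.633). Elovl1, an elongase of very long chain fatty acids, was at 153 and 157 against 144 and 141 (log2 fold change -0.13 ± 0.057, adjusted p = 0.668). Nr1h3, which encodes LXR alpha, had 11 and 8 counts with vehicle and 3 and 1 with 5D, too few for a fold. By list, 7 of 8 genes of other fatty acid and glycerolipid synthesis were lower (median log2 fold change -0.12). The 7 genes of SREBP processing and degradation had a median of 0.023, the 8 genes of isoprenoid use 0.028, the 7 genes of cholesterol storage and transport 0.011, and the 3 other LXR and oxysterol genes 0.0054.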

How the data were processed

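RNA of 4 libraries of sorted lung ILC2s was measured. Per the submitters' processing notes and the study's methods, libraries were made with a low-input cDNA kit, base calls came from CASAVA 1.8.2, and reads were aligned with STAR 2.6.1 to mm10 and quantified in Partek with GENCODE M21. The deposited values are estimated counts, not normalized by the authors. Within 1e-09, 51.5% to 54.6% of a library's values were whole, and all were rounded. Neither source states whether counting used strand or how reads shared by near-identical genes were split.

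Counts were scaled by the upper quartile, genes were kept from a mean of 1 and a sum of 10 normalized counts, and edgeR 4.0.16 in R 4.3.3 tested 5D against vehicle by quasi-likelihood, two-sided, with Benjamini-Hochberg adjustment over all 17650 genes. The tool differs from the authors' Gene Set Analysis, which was not run here. The design was written for counts or rounded estimated counts. A standard error is the size of the log2 fold change over the root of its F statistic. The common biological coefficient of variation was 8.51%, and members had 36 to 8532 counts per library. Normalized CPM are counts over the total count times its upper-quartile factor, in CPM. Levels per kb use the principal transcript in GENCODE M21. Near-identical stretches (at least 150 nt, 95% identity) were found with BLAST 2.17.0. Motifs were counted in RefSeq windows of 300 bases, of which up to 200 bases before the start and outside the GENCODE gene are shown; in 37 of 41 member windows the bases after the start matched a transcript of the same gene. Plots used matplotlib 3.10.9 (Python 3.11.15).

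All 40 members are named. Members with an unadjusted p-value under 0.05, and in each step those with the largest and smallest absolute difference and the highest level per kb, have values for each library; others have ranges. Of 35 other pathway genes, Cyp27a1 was not used and Ch25h was below the filter; those with an unadjusted p-value under 0.05 are named. The members, lists, motifs and tests were chosen with earlier results of these data known, so no list count is independent support. Alternatives were TMM, DESeq2 1.42.0 size factors and Wald test, limma-voom (limma 3.58.1), other filters, unrounded counts, thinned libraries, no mitochondrially encoded genes, the replicate number as a block and leaving out each library. The fit was tested on simulated data for this comparison with 17278 genes: 100% of genes changed 2-fold and 10% of those changed 1.3-fold were called. For a single gene, exact permutation of 2 against 2 libraries cannot give a p-value below 0.333. Same-numbered replicates deviated with a correlation of 0.0611 and were not treated as pairs.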

Additional observations from a re-analysis of the deposited data

How the results depend on the processing

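With 2 libraries per group, small changes were seldom called at an adjusted p-value, and all counts of members follow from fits on these 4 libraries. In edgeR's main test 0 members were called at an adjusted p-value under 0.05. The count was 2 with DESeq2's Wald test (Fdps 0.00104, Scd2 0.000218), 2 without a filter (Fdps 0.0285, Scd2 0.00991), 2 with the replicate number as a block (Fdps 0.0312, Scd2 0.0182), 1 with limma-voom (Scd2 0.0320) and 1 with edgeR's filterByExpr (Scd2 0.0348). Calls over all genes tested also rose in each of these fits, as given above. Without vehicle replicate 2 the log2 fold changes were -0.50 for Hmgcs1, -0.35 for Fdps, -0.36 for Cyp51 and -0.53 for Scd2. Without vehicle replicate 1 they were -0.21, -0.27, -0.15 and -0.36. With 1 library left out, the lone library of a group is assumed to vary like the other group. The replicate block moved no other call of a member, and the numbers are not known to pair the libraries.

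Members lower at an unadjusted p-value under 0.05 numbered 11 to 15 over the alternatives that keep all libraries. Over all genes tested, the lower ones ran from 416 of 17650 with DESeq2's Wald test to 758 of 22054 without a filter. Members higher numbered 3, but 1 with DESeq2's Wald test and 1 with thinned libraries. Over all genes the higher ones were 362 of 17650 and 600 of 17110 in these 2 fits. Without 1 library the median log2 fold change ran from -0.15 to -0.11 for all members and from -0.17 to -0.035 for the mevalonate enzymes. It ran from -0.22 to -0.18 for the sterol enzymes and from -0.16 to -0.13 for the regulators. For the lipogenic genes it ran from -0.19 to -0.10. For the efflux genes it was 0.015, but 0.066 with limma-voom, 0.062 with thinned libraries and -0.15 to 0.11 without 1 library. The cause was not tested.

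The direction of 39 members held in the 10 alternatives that keep all libraries. Nr1h2 turned to 0.0048 with TMM and 0.0097 with thinned libraries. Without 1 library 12 members changed sign: Mvk (-0.19 to 0.25), Pmvk (-0.028 to 0.091), Ebp (-0.17 to 0.034), Scap (-0.078 to 0.19), Insig2 (-0.12 to 0.074), Acly (-0.082 to 0.030), Acss2 (-0.052 to 0.34), Acaca (-0.32 to 0.0068), Elovl6 (-0.26 to 0.060), Fads2 (-0.80 to 0.24), Nr1h2 (-0.055 to 0.040) and Abca1 (-0.40 to 0.62).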
